A study of Mus musculus with 16 samples.

Results

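KEAP1 holds the transcription factor NRF2 (gene Nfe2l2) for ubiquitin-dependent degradation, and reactive cysteines of KEAP1 serve as the sensors whose modification lets NRF2 accumulate and switch on detoxifying and antioxidant genes through antioxidant response elements. Cys226 and Cys613 are among the residues that have been assigned to the sensing of hydrogen peroxide. The data described here are the whole-liver transcriptomes of mice that carried serine at both positions on both Keap1 alleles while their selenoproteins, the selenium-containing enzymes that remove peroxides and reduce thioredoxin, were left intact. They comprise 8 of the 16 samples of the series. The mutant group, written Keap1 C226S&C613S homo::Trsp fl/fl (4 livers), is called the mutant group here, and the control group is Trsp fl/fl (4 livers, wild-type Keap1). The members were chosen by the column names of the processed table and compared across all named genes.

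All 8 mice were labelled male and were 20 days old. Both genotypes carried floxed alleles of Trsp, the selenocysteine tRNA gene, and neither carried AlbCre, the Cre recombinase driven by the hepatocyte-active albumin promoter, so that Trsp was not recombined on either side. The remaining 8 samples were the same 2 Keap1 genotypes with AlbCre and floxed Trsp (4 each), in which recombination of Trsp in hepatocytes ends selenoprotein synthesis. The comparison without AlbCre addresses how hepatic gene expression differs between the 2 Keap1 genotypes when the selenoprotein system is in place. The substitutions are present in every cell type of the mutant mice, not in hepatocytes alone.

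The substitutions themselves are shown by the genotyping probes of the study, since gene-level counts cannot show them. The letters in capitals are the codon at each position.
Cys226, wild-type probe: tgtcacacTGCcagctg
Cys226, serine probe: ctgtcacacTCCcagctg
Cys613, wild-type probe: atggaacccTGTcggaa
Cys613, serine probe: atggaacccTCCcggaa
Counted from 1 at the 5′ end of each wild-type probe, the serine allele differed by G10C in the Cys226 probe and by G11C and T12C in the Cys613 probe. Both wild-type probes matched the Keap1-201 transcript of GENCODE M21 (GRCm38) once, with the codons in frame. The Cys226 codon lay in exon 3 of 6, at chr9:21234035-21234037 on the minus strand, and the Cys613 codon in exon 6, at chr9:21230738-21230740. The reference transcript around each codon read as follows.
Around Cys226: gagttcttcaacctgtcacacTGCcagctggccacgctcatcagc
Around Cys613: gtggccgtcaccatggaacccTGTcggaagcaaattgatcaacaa

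The 8 libraries held 12456014 to 19164124 reads, and values are given as log2(normalized count + 4), so that a gene without reads stands at 2.0. A fold change is a difference of group means on that scale, which understates the change of genes with few reads. Libraries of the same genotype correlated at 0.953 to 0.981 across genes (12 pairs) and libraries of the 2 genotypes at 0.952 to 0.970 (16 pairs), so that the ranges overlapped. All 8 held 1251 to 1607 reads of the Y-linked Ddx3y and at most 46 of Xist, as their label of sex requires. Replicate 1 of the mutants with AlbCre, labelled male as well, held 28799 reads of Xist and 0 of Ddx3y. It is not among the 8 and entered only the estimate of the spread and the values with AlbCre. The group sizes are 4 livers throughout, and values after ± are SD unless given as SE. The labels do not say more of how the animals were kept and name no litter or breeding line. Differences of that kind cannot be told apart from those of the Keap1 alleles. The p-values therefore measure the spread between livers within a genotype, pooled over all 16 libraries, those with AlbCre included.

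Few single genes differed between the 2 genotypes after adjustment for the number of genes tested. With all 16 libraries in 1 limma model, 15781 of 18209 named genes were tested. With a log2 difference above 1 in size and an adjusted p below 0.01, which are the limits of the study applied here to the limma test and not to the study's own test, 1 gene was higher (0.00634% of the genes tested) and 1 was lower (0.00634%) in the mutant livers. At an adjusted p under 0.05 with no limit on size, 5 genes were higher (0.0317%) and 9 lower (0.057%). At an unadjusted p under 0.05, 682 genes were higher (4.32%) and 749 lower (4.75%). With no limit on p, 8053 genes had a lower mean in the mutant livers (51.0%) and 7724 a higher mean. These shares serve below as the background against which gene groups are read. The values of the 8 livers did not overlap between genotypes for 503 genes that were higher (3.19%) and 480 that were lower (3.04%).

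**Figure D1:**
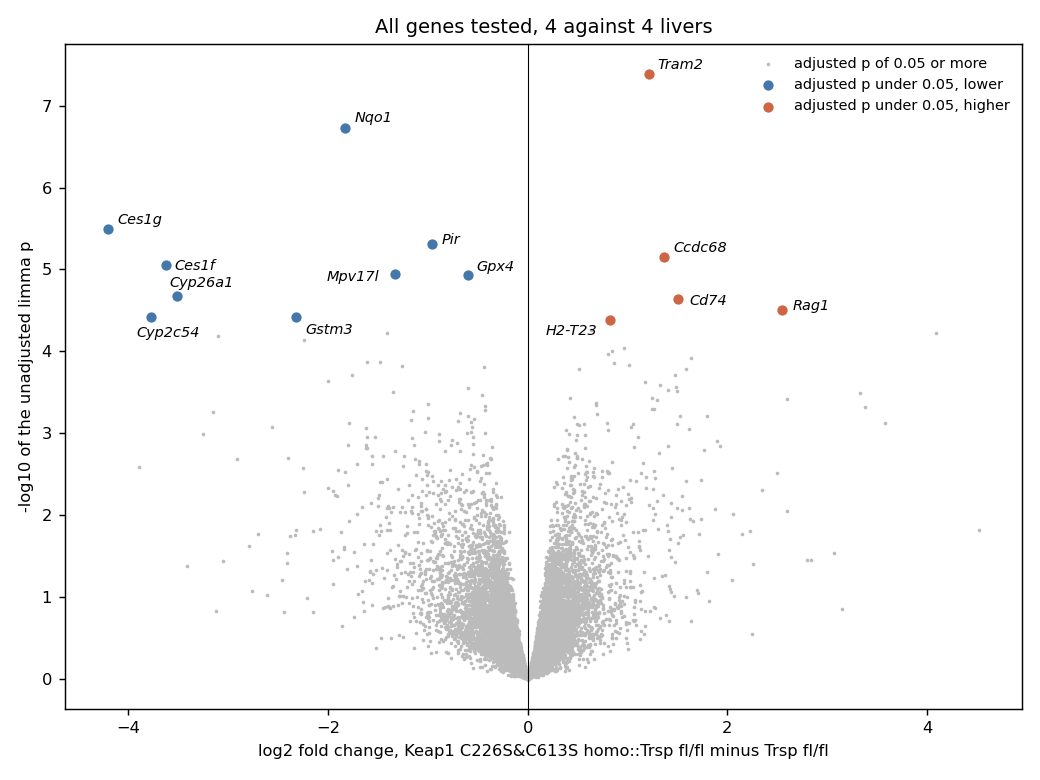
The x axis gives the log2 fold change between mutant and control (Trsp fl/fl) livers and the y axis the -log10 of the unadjusted limma p, with 1 point for each of 15781 genes. The 9 genes lower and 5 genes higher at an adjusted p under 0.05 are named, with Tram2 and Nqo1 at the top.

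The gene that fell with the smallest p was Nqo1, which encodes NAD(P)H quinone oxidoreductase 1 and is the standard readout of NRF2 activity. Its log2 level was 7.35, 7.57, 7.21 and 7.37 in the 4 Trsp fl/fl livers and 5.60, 5.59, 5.40 and 5.61 in the 4 mutant livers. The mutant livers formed a narrow band below all controls. The log2 fold change was -1.82 ± 0.21 (SE), and the mean normalized count in the mutants was 0.264 of that in the controls (limma, adjusted p = 0.00147). The gene that rose with the smallest p was Tram2, which encodes a protein associated with the translocon of the endoplasmic reticulum. It stood at 8.42, 8.48, 8.73 and 8.82 in the controls and 10.08, 9.78, 9.87 and 9.56 in the mutants, again without overlap, a log2 fold change of 1.21 ± 0.12 (SE) (limma, adjusted p = 0.000647). These 2 genes were past an adjusted p of 0.05 in all 20 alternative fits.

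Another 8 genes fell at an adjusted p under 0.05. Ces1g, a carboxylesterase that hydrolyses lipid esters, stood at 12.05, 11.67, 11.39 and 11.24 in controls and 9.02, 5.64, 6.26 and 8.63 in mutants. Its relative Ces1f stood at 9.0, 9.47, 6.97 and 7.90 in controls and 5.79, 4.27, 5.23 and 3.54 in mutants. They differed by -4.20 ± 0.60 (SE) and -3.63 ± 0.56 (SE) on the log2 scale, and the mutant livers were widely spread in both (limma, adjusted p = 0.0168 and 0.0228). Cyp26a1, which clears retinoic acid, was read 188, 44, 47 and 22 times in the controls and 0, 4, 2 and 1 times in the mutants. Its log2 fold change was -3.51 ± 0.59 (SE) (limma, adjusted p = 0.0367), and its level in the controls varied more than in the mutants. Cyp2c54, a P450 of fatty acid epoxidation, stood at 10.97, 11.48, 10.93 and 12.24 in controls and 6.72, 6.68, 8.25 and 8.85 in mutants, a log2 fold change of -3.78 ± 0.67 (SE) (limma, adjusted p = 0.0469). The lowest control liver was above the highest mutant liver for each of these genes. The Ces1 and Cyp2c genes are families of close paralogs, where the split of reads between copies is uncertain.

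Gstm3, a glutathione transferase, Pir, which encodes the iron-binding nuclear protein pirin, and Mpv17l, which encodes a small organelle membrane protein, fell without overlap as well. Gstm3 stood at 10.35, 10.32, 10.06 and 10.22 in controls and 8.36, 8.19, 8.37 and 6.74 in mutants, with a log2 fold change of -2.32 ± 0.41 (SE) (limma, adjusted p = 0.0469). Pir stood at 7.68, 7.85, 8.18 and 8.11 in controls and 6.93, 7.04, 7.13 and 6.89 in mutants, with a fold change of -0.96 ± 0.14 (SE) (limma, adjusted p = 0.0193). Mpv17l stood at 8.10, 8.13, 8.11 and 7.44 in controls and 6.69, 6.77, 6.35 and 6.67 in mutants, with -1.32 ± 0.21 (SE) (limma, adjusted p = 0.0228). The mutant values of Pir and Mpv17l were tight and replicate 4 was the lowest of Gstm3. The remaining gene was a selenoprotein, Gpx4, the peroxidase that reduces lipid hydroperoxides. It stood at 10.94, 11.07, 10.95 and 10.84 in controls and 10.39, 10.15, 10.30 and 10.55 in mutants, a small difference of -0.60 ± 0.10 (SE) with little spread (limma, adjusted p = 0.0228).

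The 4 genes that rose beside Tram2 were Ccdc68, Cd74, Rag1 and H2-T23. Ccdc68, which encodes a coiled-coil protein, stood at 5.26, 5.85, 6.22 and 6.15 in controls and 7.02, 7.16, 7.40 and 7.36 in mutants, a difference of 1.37 ± 0.21 (SE) (limma, adjusted p = 0.0223). Cd74, the invariant chain of MHC class II, stood at 10.11, 9.43, 9.28 and 8.74 in controls and 10.79, 11.12, 10.81 and 10.87 in mutants, a difference of 1.51 ± 0.25 (SE) (limma, adjusted p = 0.0367). H2-T23, a nonclassical class I molecule, stood at 11.30, 11.12, 11.13 and 10.83 in controls and 11.84, 12.09, 11.86 and 11.90 in mutants, a difference of 0.83 ± 0.15 (SE) (limma, adjusted p = 0.047). The 4 mutant livers agreed closely with each other for all 3 genes, whereas the controls were more spread. Rag1, the recombinase of developing lymphocytes, was read 2, 3, 0 and 1 times in the controls and 33, 76, 22 and 16 times in the mutants, with a log2 fold change of 2.54 ± 0.44 (SE) (limma, adjusted p = 0.0442). Only livers with the mutant Keap1 reached the filter's normalized count of 10 for Rag1. It was tested because it was high there, so its call is a description. In bulk tissue, fewer or more cells of a type and less or more RNA per cell cannot be told apart.

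The calls other than Nqo1 and Tram2 did not hold in every alternative fit. Ces1g kept an adjusted p under 0.05 in 18 of 20 alternative fits, Ccdc68 and Pir in 15, Ces1f in 14, Mpv17l in 12, Gpx4 in 11, Cd74 in 9, Cyp26a1 and Cyp2c54 in 8, Gstm3 in 6, Rag1 in 5 of 19 and H2-T23 in 4. With the 8 compared livers alone, 2 genes were higher and 2 lower at an adjusted p under 0.05. Leaving out 1 compared liver at a time gave 1 to 6 higher, with 1 without control replicate 2 or mutant replicate 1 or 2, and 3 without control replicate 3 or 4 or mutant replicate 3. The number lower was 1 without control replicate 2, 2 without mutant replicate 2, 3 without control replicate 1 or 3 or mutant replicate 1, and 4 without mutant replicate 3. At the limits taken from the study, 2 genes were higher without control replicate 1. At these thresholds 0 were lower without control replicate 2 or mutant replicate 3, 2 without mutant replicate 1 and 4 without mutant replicate 4. The fit without the mutant AlbCre library that held Xist gave 5 higher and 13 lower at an adjusted p under 0.05.

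NRF2 target genes were examined by what their products do. Of 59 listed targets, 58 passed the filter on low values, and 52 of them had a lower mean in the mutant livers. At an unadjusted p under 0.05, 28 were lower and 0 higher, against the background of 4.75% lower and 4.32% higher. Their median log2 fold change was -0.45, beside -0.01 for all genes tested. The groups did not overlap for 22 of them, all lower, beside 3.04% of all genes tested that were lower without overlap. Leaving out each liver in turn, between 25 and 29 were lower at that p and the median ran from -0.51 to -0.43. The list was put together with earlier results of these libraries known, so its counts are a description.

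**Figure D2:**
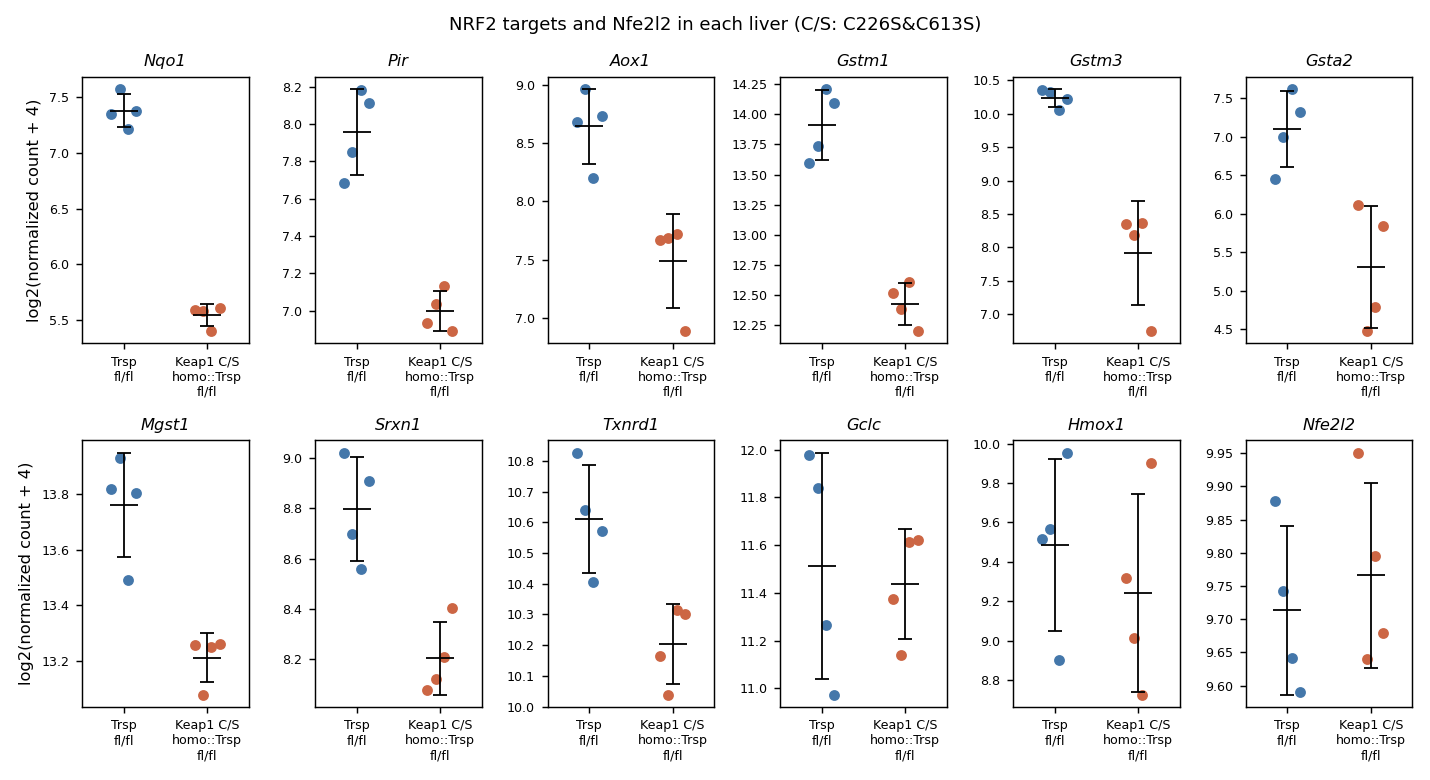
The y axes give log2(normalized count + 4) of 12 genes, with 1 point for each of 4 Trsp fl/fl livers (blue) and 4 mutant livers (orange) and bars for the mean ± SD. The axes do not start at 0. The 9 genes from Nqo1 to Txnrd1 show no overlap between genotypes, while Gclc, Hmox1 and Nfe2l2 overlap.

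Glutathione transferases, which couple glutathione to electrophiles, made up the part of the list with the lowest median (-0.77). All 13 measured members were lower in the mean and 9 had an unadjusted p under 0.05. Gstm1, a highly expressed mu-class enzyme, stood at 13.60, 13.74, 14.21 and 14.09 in controls and 12.52, 12.39, 12.61 and 12.20 in mutants, a log2 fold change of -1.48 ± 0.29 (SE, limma unadjusted p = 0.000133, adjusted p = 0.0838). Gsta2, an alpha-class enzyme, stood at 6.46, 7.0, 7.62 and 7.32 in controls and 6.11, 4.47, 4.79 and 5.85 in mutants, with -1.79 ± 0.43 (SE, limma unadjusted p = 0.00076, adjusted p = 0.163). Gsta2 was more widely spread in the mutants than Gstm1. Mgst1, a microsomal transferase, stood at 13.82, 13.93, 13.49 and 13.81 in controls and 13.26, 13.08, 13.25 and 13.26 in mutants, a difference of -0.55 ± 0.14 (SE, limma unadjusted p = 0.00112, adjusted p = 0.184). None of these 3 overlapped between genotypes. Gstm4 differed by -1.12 ± 0.32 (SE), Gstm2 by -0.78 ± 0.24 (SE), Mgst3 by -0.66 ± 0.19 (SE) and Gstp1 by -0.44 ± 0.20 (SE). Gsta1 was close to the limit of detection, with 5, 7, 4 and 0 reads in the controls and 1, 1, 0 and 0 in the mutants. Over the whole family of 22 measured glutathione transferases, listed targets included, 20 were lower in the mean.

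Of 12 enzymes that act on quinones, carbonyls and epoxides, 11 were lower in the mean and 6 had an unadjusted p under 0.05, with a median of -0.45. Beside Nqo1 and Pir, these were the aldehyde oxidase gene Aox1, the aldehyde dehydrogenase Aldh1a7, the epoxide hydrolase Ephx1 and Htatip2. Aox1 stood at 8.68, 8.96, 8.20 and 8.73 in controls and 7.67, 7.69, 7.72 and 6.89 in mutants, a difference of -1.15 ± 0.27 (SE, limma unadjusted p = 0.000539, adjusted p = 0.152). Ephx1 stood at 10.26, 10.46, 10.58 and 10.91 in controls and 9.64, 9.35, 9.88 and 10.01 in mutants, with -0.83 ± 0.27 (SE, limma unadjusted p = 0.00732, adjusted p = 0.332). For Aldh1a7, whose log2 fold change was -1.57 ± 0.51 (SE), the genotypes overlapped. The carbonyl reductase Cbr1 differed by -0.22 ± 0.20 (SE) (limma, unadjusted p = 0.281).

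The thioredoxin system, which keeps protein thiols reduced, had 5 of 5 members lower in the mean. Srxn1, the sulfiredoxin that repairs overoxidized peroxiredoxins, stood at 9.02, 8.70, 8.56 and 8.91 in controls and 8.08, 8.12, 8.21 and 8.40 in mutants, a log2 fold change of -0.59 ± 0.13 (SE, limma unadjusted p = 0.000282, adjusted p = 0.117). Txnrd1, the cytosolic thioredoxin reductase and itself a selenoprotein, stood at 10.83, 10.64, 10.40 and 10.57 in controls and 10.16, 10.04, 10.31 and 10.30 in mutants, with -0.41 ± 0.15 (SE, limma unadjusted p = 0.0142, adjusted p = 0.407). Both genes were separated between genotypes by a narrow gap. Txn1 differed by -0.41 ± 0.14 (SE) and Prdx1 by -0.22 ± 0.12 (SE), with unadjusted p of 0.0097 and 0.0844.

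Genes of glutathione synthesis lay closer to 0 than the transferases, with a median of -0.12. Gclc, the catalytic subunit of the rate-limiting ligase, stood at 11.98, 11.84, 11.26 and 10.97 in controls and 11.37, 11.14, 11.61 and 11.62 in mutants. Gclm, its modifier subunit, stood at 11.54, 11.51, 11.08 and 11.18 in controls and 11.30, 11.17, 11.27 and 11.42 in mutants. The genotypes overlapped for both, and the log2 fold changes of -0.08 ± 0.25 (SE) and -0.03 ± 0.16 (SE) were smaller than their errors and changed sign when single livers were left out. Gsr, the glutathione reductase, had a fold change of -0.37 ± 0.14 (SE, limma unadjusted p = 0.0178, adjusted p = 0.425). Slc7a11, the cystine transporter, did not pass the filter.

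Among genes of NADPH supply, 5 of 6 were lower in the mean. Me1, the malic enzyme, stood at 9.56, 9.79, 8.89 and 9.0 in controls and 7.11, 7.67, 8.32 and 7.90 in mutants, a difference of -1.56 ± 0.42 (SE, limma unadjusted p = 0.00188, adjusted p = 0.233). Tkt, the transketolase of the pentose phosphate pathway, stood at 9.57, 9.47, 9.47 and 9.05 in controls and 8.59, 8.68, 8.72 and 8.84 in mutants, with -0.69 ± 0.21 (SE, limma unadjusted p = 0.00484, adjusted p = 0.302). Neither gene overlapped between genotypes, and Me1 belongs to lipogenesis too. Of the heme and iron genes, the ferritin chains Ftl1 and Fth1 were lower by small amounts with little spread. Ftl1 stood at 14.54, 14.43, 14.33 and 14.61 in controls and 13.91, 13.77, 13.97 and 14.19 in mutants, a difference of -0.52 ± 0.17 (SE, limma unadjusted p = 0.00689, adjusted p = 0.328), and Fth1 differed by -0.28 ± 0.11 (SE, limma unadjusted p = 0.0218, adjusted p = 0.452). Hmox1, the heme oxygenase, stood at 9.52, 9.57, 8.90 and 9.96 in controls and 9.32, 9.01, 8.73 and 9.90 in mutants with overlap (-0.24 ± 0.47 (SE)).

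Of 7 genes of glucuronidation and export, 4 were lower at an unadjusted p under 0.05, and the median was -0.63. Ugdh, which makes the UDP-glucuronic acid that conjugation consumes, stood at 9.99, 9.70, 9.40 and 9.51 in controls and 9.13, 8.48, 8.64 and 8.81 in mutants, a difference of -0.88 ± 0.22 (SE, limma unadjusted p = 0.00103, adjusted p = 0.18). Ugt1a6a stood at 9.89, 9.70, 9.78 and 9.67 in controls and 9.40, 8.57, 9.11 and 8.20 in mutants, with -0.94 ± 0.28 (SE, limma unadjusted p = 0.00388, adjusted p = 0.281). The exporter Abcc4 differed by -0.63 ± 0.23 (SE), and the transporter Abcg2, from a separate list of hepatic transporters, by -0.45 ± 0.12 (SE) (limma, unadjusted p = 0.00185). Abcc2 and Abcc3 had fold changes of 0.10 and 0.04. In the whole family of UDP-glucuronosyltransferases, 14 of 18 measured genes were lower in the mean and 6 had an unadjusted p under 0.05, among them Ugt1a5 (-1.76 ± 0.36 (SE)) and Ugt1a10 (-1.61 ± 0.40 (SE)). The Ugt1a genes share their last exons, so reads cannot always be assigned to one of them.

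The remaining 6 targets had a median of -0.23. Osgin1, an oxidative stress-induced growth inhibitor, had a fold change of -1.71 ± 0.47 (SE), with control livers spread from 9.08 to 11.25. The regulators of the pathway lay around 0. Of 12 genes of the KEAP1-NRF2 system, 6 were lower and 6 higher in the mean, 0 had an unadjusted p under 0.05, and all lay between -0.14 and 0.17. Keap1 mRNA stood at 9.67, 9.62, 9.45 and 9.90 in controls and 9.38, 9.42, 9.62 and 9.66 in mutants, a fold change of -0.14 ± 0.13 (SE, limma unadjusted p = 0.282, adjusted p = 0.779). Nfe2l2 mRNA stood at 9.88, 9.74, 9.64 and 9.59 in controls and 9.95, 9.64, 9.79 and 9.68 in mutants, a fold change of 0.05 ± 0.16 (SE, limma unadjusted p = 0.743, adjusted p = 0.955). The genotypes overlapped for both genes.

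**Figure D3:**
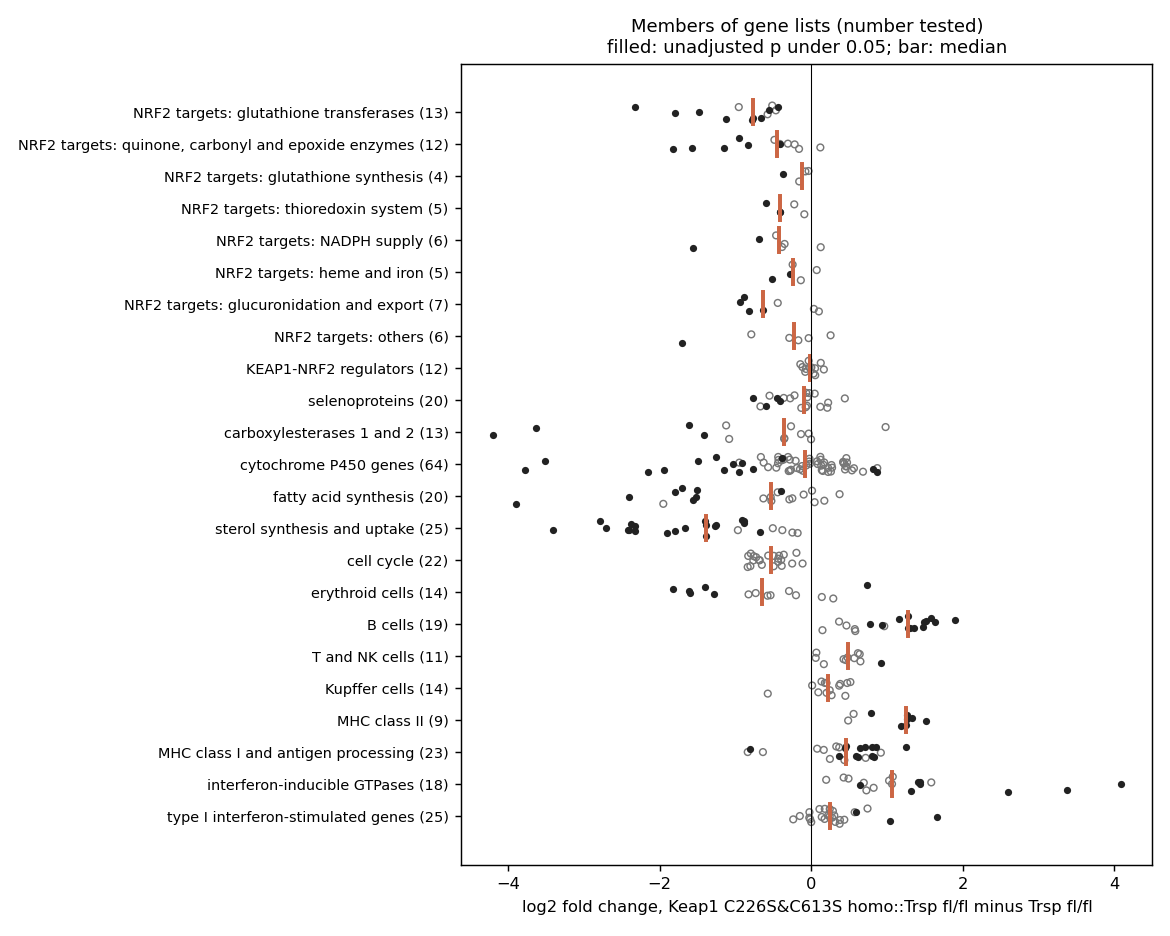
The x axis gives the log2 fold change between mutant and control (Trsp fl/fl) livers, with 1 point per gene and 1 row per gene list. Filled points have an unadjusted p under 0.05 and the orange bar is the median. The NRF2 target, sterol, fatty acid and erythroid rows lie mostly left of 0, and the B cell, MHC class II and interferon-inducible GTPase rows lie right of 0.

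Antioxidant response elements, the sites that NRF2 binds with small MAF proteins, hold the letters TGACNNNGC, searched on both strands. In RefSeq windows of GRCm38.p6 around each gene's start, 15 of 49 NRF2 targets with a window held these letters in at least 1 of their windows. Of all 32851 windows in the table, 12.4% held them, a share of windows that cannot be set against a share of genes. A comparison with all genes tested, or with those lower or higher at an unadjusted p under 0.05, is void because fewer than 80% of them had a window (69.1%, 71.7% and 74.3%). Of the 9 genes that fell at an adjusted p under 0.05, 6 had a window and Pir alone held the letters. The stretches below are shown because their genes were lower in the mutant livers (Pir, Ugdh, Mgst1 and Txnrd1) or were not (Gclm), with the matching letters in capitals, on either strand.
Pir (chrX:164269197-164269246, + strand): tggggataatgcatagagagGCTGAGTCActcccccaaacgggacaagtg
Ugdh (chr5:65435945-65435994, - strand): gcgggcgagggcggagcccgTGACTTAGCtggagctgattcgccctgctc
Mgst1 (chr6:138140451-138140500, + strand): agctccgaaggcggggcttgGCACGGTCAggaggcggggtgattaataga
Txnrd1 (chr10:82859094-82859143, + strand): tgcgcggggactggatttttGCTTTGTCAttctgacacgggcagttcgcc
Gclm (chr3:122245403-122245452, + strand): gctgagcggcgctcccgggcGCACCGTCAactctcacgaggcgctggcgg
The windows of Nqo1, Gstm1, Gstm3 and Gsta2 held no match, which says nothing of sites farther from the start.

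Carboxylesterases and P450 enzymes held some of the largest differences. Of 13 measured carboxylesterases, 12 were lower in the mean, 4 were lower at an unadjusted p under 0.05, namely Ces1g, Ces1f, Ces1e and Ces2c, and the median was -0.36. Without replicate 1 or 2 of Trsp fl/fl the median was -0.61 and -0.58, and 4 were lower at that p in both cases. Ces1e stood at 9.33, 9.31, 8.95 and 8.49 in controls and 7.74, 6.90, 7.43 and 7.58 in mutants, a difference of -1.61 ± 0.32 (SE, limma unadjusted p = 0.000135, adjusted p = 0.0838). Ces2c differed by -1.41 ± 0.52 (SE). Of 64 measured P450 genes, 12 were lower and 2 higher at that p, with a median of -0.09. That median was -0.19 without replicate 3 of Trsp fl/fl and 0.021, above 0, without replicate 4. Cyp2r1, a vitamin D 25-hydroxylase, stood at 7.90, 7.70, 7.28 and 7.31 in controls and 6.06, 6.33, 6.11 and 6.64 in mutants, with -1.26 ± 0.25 (SE, limma unadjusted p = 0.000149, adjusted p = 0.0838). Of the 12 lower genes, 7 were of the Cyp2c subfamily. Cyp2c38 stood at 5.72, 5.66, 5.91 and 9.60 in controls and 4.91, 4.34, 4.51 and 4.53 in mutants, where replicate 4 of the controls was far above the other 3. Of 10 bile acid genes, 1 was higher at that p (Cyp8b1, 0.87 ± 0.37 (SE)) and Cyp7a1, the rate-limiting enzyme, differed by 0.46 ± 0.43 (SE).

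Retinoid genes other than Cyp26a1 differed in part. Of 15 measured, 10 were lower in the mean and 4 had an unadjusted p under 0.05. Aldh1a1, which makes retinoic acid, stood at 12.16, 11.94, 10.74 and 10.39 in controls and 10.47, 9.73, 10.29 and 9.33 in mutants, a difference of -1.35 ± 0.45 (SE) with overlap. Lrat, which esterifies retinol in stellate cells, stood at 10.07, 9.96, 9.79 and 9.65 in controls and 9.05, 9.25, 9.36 and 9.45 in mutants without overlap, a difference of -0.59 ± 0.24 (SE) (limma, unadjusted p = 0.0241).

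Genes of sterol synthesis had the lowest median of all lists, and one control liver stood apart in them. All 25 measured members were lower in the mean, 20 had an unadjusted p under 0.05 and the median was -1.38. Sqle, the squalene epoxidase, stood at 10.39, 10.42, 9.45 and 4.85 in controls and 6.18, 5.67, 5.02 and 4.59 in mutants. Idi1, the isomerase of isopentenyl diphosphate, stood at 12.63, 12.84, 11.48 and 8.12 in controls and 8.92, 8.48, 7.97 and 8.53 in mutants. For Sqle and Idi1, replicate 4 of the Trsp fl/fl livers lay among the mutants and the other 3 controls lay far above them. The log2 fold changes were -3.41 ± 1.54 (SE, limma unadjusted p = 0.0427, adjusted p = 0.535) for Sqle and -2.79 ± 1.11 (SE, limma unadjusted p = 0.0238, adjusted p = 0.463) for Idi1. Groups without overlap were found for 5 of the 25 genes, beside 3.04% of all genes tested that were lower without overlap. Among them was Tmem97, which stood at 9.89, 9.89, 9.95 and 9.43 in controls and 9.36, 9.08, 9.25 and 8.76 in mutants.

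The call on single sterol genes depended on which control liver was kept. Without replicate 4 of Trsp fl/fl, 23 of 25 genes had an unadjusted p under 0.05 and the median was -1.89. Without replicate 1, 2 or 3 of Trsp fl/fl, the count was 9, 7 and 9. Leaving out replicate 2, 3 or 4 of the mutants gave 12 each time. The median difference of the list from the mean of the 8 livers was 1.30, 1.15, 1.13 and -0.84 in the controls and -0.48, -0.73, -0.76 and -0.80 in the mutants. With AlbCre, the wild-type Keap1 livers stood at -1.45, -0.94, 1.01 and 1.25, and all 4 mutant livers stood low, at -1.45, -1.09, -1.32 and -0.52.

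Fatty acid synthesis followed the same livers. Of 20 measured genes, 16 were lower in the mean, 8 had an unadjusted p under 0.05 and the median was -0.53. Without replicate 4 of Trsp fl/fl the median was -0.85. Scd1, the stearoyl-CoA desaturase, stood at 13.47, 13.01, 14.96 and 11.30 in controls and 8.09, 8.82, 9.40 and 10.88 in mutants, a log2 fold change of -3.89 ± 1.08 (SE, limma unadjusted p = 0.00256, adjusted p = 0.253). Acacb, the mitochondrial acetyl-CoA carboxylase, stood at 9.64, 9.46, 10.27 and 8.34 in controls and 7.14, 6.88, 7.42 and 6.65 in mutants, with -2.40 ± 0.65 (SE, limma unadjusted p = 0.00202, adjusted p = 0.236). Fasn, the fatty acid synthase, stood at 13.06, 12.98, 13.64 and 11.49 in controls and 10.94, 11.47, 11.70 and 11.07 in mutants, with -1.50 ± 0.49 (SE, limma unadjusted p = 0.00771, adjusted p = 0.335). In each of the 3 genes the lowest control was replicate 4, and for Fasn it fell within the range of the mutants. Acss2, which makes acetyl-CoA from acetate, stood at 10.85, 10.75, 10.60 and 9.22 in controls and 8.87, 8.37, 8.65 and 8.33 in mutants (-1.80 ± 0.46 (SE)). Srebf2, which encodes the sterol-responsive activator, and Acly differed by -0.51 ± 0.33 (SE) and -0.53 ± 0.41 (SE) with overlap. PPAR-alpha targets, the genes of fat oxidation, had a median of 0.13, with 4 of 20 higher at an unadjusted p under 0.05 (Creb3l3, Hadha and Acadm among them). Without replicate 1 of Trsp fl/fl or replicate 4 of the mutants, 1 was higher at that p in each case and the median was 0.060 and 0.019.

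**Figure D4:**
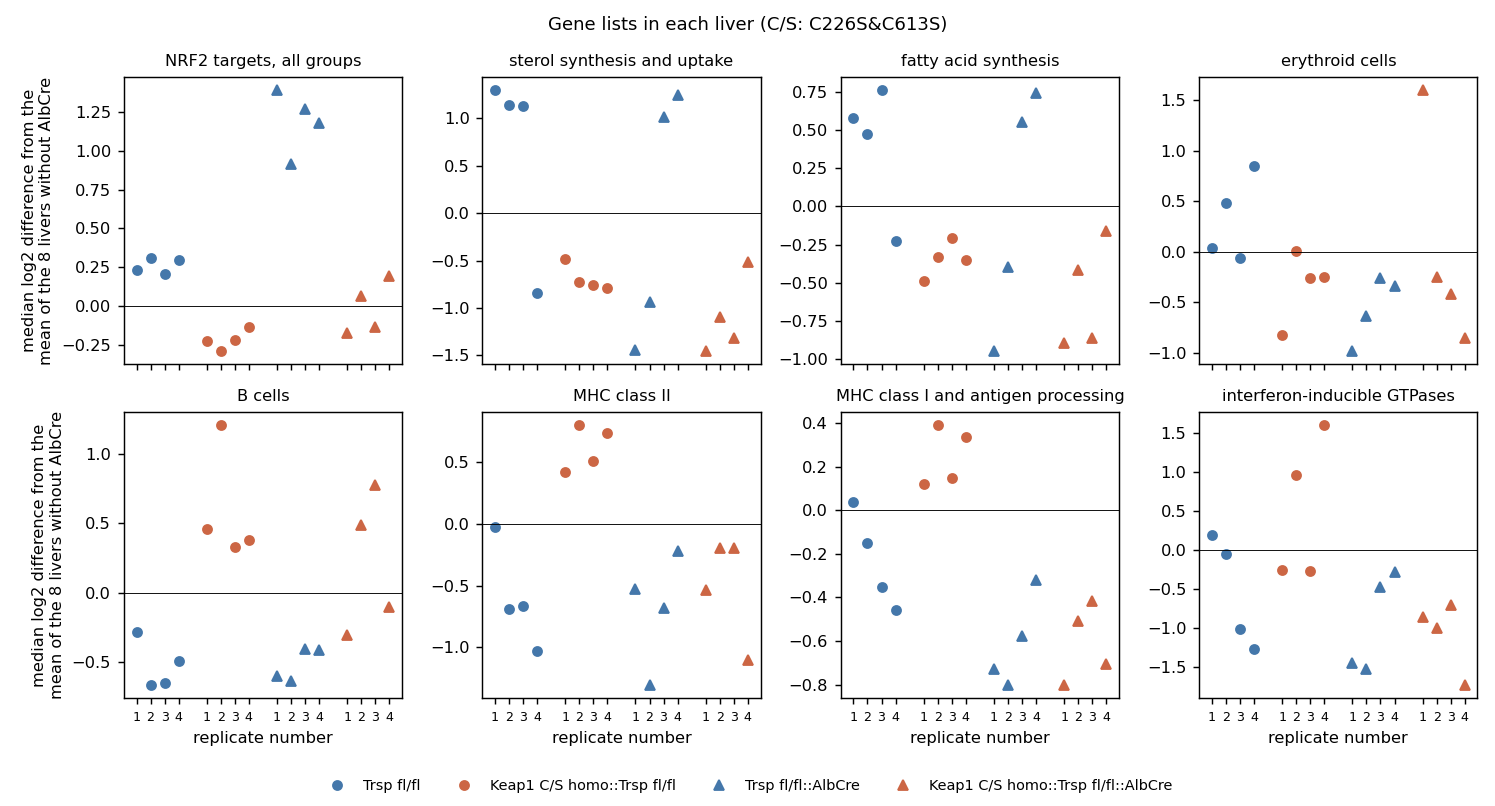
Each panel gives, for 1 gene list, the median over its genes of the log2 difference from the mean of the 8 livers without AlbCre (y axis), for replicates 1 to 4 of each genotype (x axis). NRF2 targets separate the 2 genotypes without AlbCre, and replicate 4 of Trsp fl/fl lies with the mutant livers in the sterol and fatty acid panels.

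Markers of B cells and genes of antigen presentation had higher means in the mutant livers. Of 19 measured B cell markers (21 listed), 19 were higher in the mean and 13 had an unadjusted p under 0.05, with a median of 1.27. Pax5, the identity factor of the lineage, stood at 4.89, 3.71, 4.51 and 4.24 in controls and 6.06, 6.61, 5.59 and 5.64 in mutants, a log2 fold change of 1.64 ± 0.32 (SE, limma unadjusted p = 0.000119, adjusted p = 0.0819). Ighm, the IgM heavy chain, stood at 6.66, 5.79, 6.32 and 6.25 in controls and 7.46, 8.49, 7.33 and 7.64 in mutants, with 1.48 ± 0.31 (SE, limma unadjusted p = 0.000195, adjusted p = 0.0933). Cd79a, a chain of the B cell receptor complex, stood at 4.75, 4.32, 3.93 and 4.14 in controls and 5.49, 6.43, 5.23 and 5.96 in mutants, with 1.49 ± 0.32 (SE, limma unadjusted p = 0.000306, adjusted p = 0.121). None of these 3 overlapped, and replicate 2 of the mutants was the highest liver for each. The summed normalized count of the listed markers was 386 to 592 in controls and 755 to 1474 in mutants, and without that liver the list's median was 0.99 with 13 genes at that p. Spib and Fcrla differed by 1.52 ± 0.36 (SE) and 1.90 ± 0.48 (SE).

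Other leukocyte lists had lower medians, of 0.48 for T and NK cells and 0.33 for monocytes, neutrophils and dendritic cells. Most of their members were higher in the mean as well. These were 11 of 11 for T and NK cells, 10 of 12 for monocytes, neutrophils and dendritic cells, and 13 of 14 for Kupffer cells. Of 11 measured T and NK cell markers, 1 was higher at an unadjusted p under 0.05 (Nkg7, 0.92 ± 0.40 (SE)) and Cd3e differed by 0.43 ± 0.46 (SE), and of the 16 listed 4 did not pass the filter and 1 had no row. Of 12 markers of monocytes, neutrophils and dendritic cells, 2 were higher at that p. These were Cx3cr1, a chemokine receptor, which stood at 4.26, 3.28, 4.02 and 4.14 in controls and 5.14, 6.37, 5.02 and 5.53 in mutants (1.59 ± 0.32 (SE, limma unadjusted p = 0.000165, adjusted p = 0.0838)), and Xcr1 (0.64 ± 0.28 (SE)). Of 14 Kupffer cell markers, 0 had an unadjusted p under 0.05 in either direction and the median was 0.22, with a summed normalized count of 9647 to 18962 in controls and 12746 to 25789 in mutants. Prtn3, a protease of granulocyte precursors, was read 4, 2, 0 and 0 times in controls and 13, 58, 20 and 5 times in mutants (1.92 ± 0.50 (SE)).

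Of 9 measured MHC class II genes, which present peptides to T cells, all were higher in the mean, with a median of 1.25. An unadjusted p under 0.05 was found for 7, and 6 did not overlap, beside 3.19% of all genes tested that were higher without overlap. H2-Ab1 and H2-Aa encode the 2 chains of one class II molecule. H2-Ab1 stood at 8.47, 7.50, 7.64 and 7.02 in controls and 8.85, 9.12, 8.95 and 9.0 in mutants, a difference of 1.32 ± 0.28 (SE, limma unadjusted p = 0.000256, adjusted p = 0.112). H2-Aa stood at 8.37, 7.44, 7.63 and 7.16 in controls and 8.75, 9.09, 8.82 and 8.94 in mutants, with 1.25 ± 0.29 (SE, limma unadjusted p = 0.00051, adjusted p = 0.15). The mutant livers lay close together for both genes, while replicate 1 was the highest control. H2-DMb1, which helps load peptides, differed by 1.18 ± 0.25 (SE, limma unadjusted p = 0.000238, adjusted p = 0.107). The summed normalized count of the list was 829 to 2045 in controls and 3019 to 3826 in mutants.

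Of 23 measured genes of class I presentation, 12 were higher and 1 lower at an unadjusted p under 0.05, and the median was 0.46. H2-D1, a classical class I heavy chain, stood at 12.53, 12.23, 11.86 and 12.03 in controls and 13.12, 13.13, 12.88 and 12.75 in mutants, with 0.81 ± 0.16 (SE, limma unadjusted p = 0.000107, adjusted p = 0.0764). Tap1, of the peptide transporter, stood at 8.71, 8.19, 7.80 and 7.56 in controls and 8.77, 9.71, 8.90 and 9.85 in mutants, with 1.24 ± 0.27 (SE, limma unadjusted p = 0.000367, adjusted p = 0.13). Nlrc5, the class I transactivator, stood at 8.50, 8.51, 8.29 and 8.39 in controls and 9.01, 9.65, 8.83 and 9.63 in mutants, with 0.86 ± 0.17 (SE, limma unadjusted p = 0.000139, adjusted p = 0.0838). The groups did not overlap for any of the 3, although for Tap1 the gap was narrow. H2-Q10 had a log2 fold change of -0.81. Class I genes are close paralogs, so the split of reads between them is uncertain.

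Interferon-inducible GTPases, which defend cells against intracellular pathogens and respond mainly to interferon gamma, had a median of 1.07. All 18 were higher in the mean and 8 had an unadjusted p under 0.05. The genotypes did not overlap for 2 of them (Gbp2b and Gbp4), beside 3.19% of all genes tested that were higher without overlap. Tgtp1 stood at 9.29, 8.30, 7.26 and 7.55 in controls and 9.26, 11.75, 9.75 and 12.04 in mutants, with 2.60 ± 0.58 (SE, limma unadjusted p = 0.00038, adjusted p = 0.13). Gbp2b stood at 5.43, 5.73, 3.12 and 3.52 in controls and 7.71, 9.53, 6.89 and 10.01 in mutants, with 4.09 ± 0.75 (SE, limma unadjusted p = 5.92e-05, adjusted p = 0.0553). Replicates 2 and 4 of the mutants were the highest livers for both, and for Tgtp1 the remaining 2 mutants lay beside the highest control. The summed normalized count of the list was 6403 to 15049 in controls and 10007 to 36916 in mutants. Without replicate 4 of the mutants the median was 0.66 and 7 genes were at that p, and without replicate 4 of the controls they were 0.77 and 7.

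Gbp4 was not read in the controls without AlbCre. It had 0 reads in all 4 control livers and 51, 35, 37 and 46 reads in the mutants, so that its mean was at least 11.9-fold higher than 3 reads per control library would give. With AlbCre, it was read 0, 0, 14 and 0 times in wild-type Keap1 livers and 0, 79, 0 and 0 times in mutant livers. Without the reads of the mutants lacking AlbCre, Gbp4 would not have passed the filter on low values. Of 25 genes induced mainly by type I interferon, 3 were higher at an unadjusted p under 0.05 (Mx1 and Usp18 among them) and the median was 0.24. The B cell list, the class II list and the GTPase list were all higher in this comparison, and the part of each in the others was not tested.

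Globin genes and Alas2 had lower levels in the mutants. Of 14 measured markers (16 listed), 5 were lower and 1 higher at an unadjusted p under 0.05, with a median of -0.65, and 0 passed an adjusted p of 0.05. The 5 were the 4 globin genes and Alas2, the erythroid enzyme of heme synthesis. Hba-a2 stood at 13.97, 14.14, 13.40 and 13.85 in controls and 11.82, 12.13, 12.15 and 12.78 in mutants, a difference of -1.62 ± 0.42 (SE, limma unadjusted p = 0.00142, adjusted p = 0.209). Alas2 stood at 10.32, 10.61, 9.35 and 10.06 in controls and 8.32, 8.74, 8.97 and 9.20 in mutants, with -1.28 ± 0.43 (SE, limma unadjusted p = 0.00917, adjusted p = 0.351). Both were below every control in all 4 mutants. Tfrc, the transferrin receptor, which other cells express as well, was higher, at 11.58, 11.40, 11.24 and 11.76 in controls and 12.16, 12.37, 12.12 and 12.30 in mutants (0.74 ± 0.21 (SE, limma unadjusted p = 0.00289, adjusted p = 0.261)). The summed normalized count of the erythroid list was 37114 to 68193 in controls and 18124 to 31253 in mutants. Without replicate 4 of Trsp fl/fl the median was -0.26.

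Pancreatic enzyme genes were higher, but in a part of their list alone. Amy2a1 and Amy2a4 encode pancreatic amylases. Amy2a1 stood at 6.34, 7.53, 7.82 and 8.73 in controls and 11.77, 11.29, 11.28 and 9.37 in mutants, a difference of 3.32 ± 0.72 (SE, limma unadjusted p = 0.000321, adjusted p = 0.121), and Amy2a4 at 8.09, 9.31, 9.60 and 10.64 in controls and 13.78, 13.27, 13.40 and 11.53 in mutants, with 3.58 ± 0.86 (SE, limma unadjusted p = 0.000745, adjusted p = 0.163). Pnliprp1, a pancreatic lipase-related gene, stood at 4.85, 4.05, 5.16 and 5.41 in controls and 6.52, 6.95, 6.39 and 6.80 in mutants, with 1.80 ± 0.42 (SE, limma unadjusted p = 0.000622, adjusted p = 0.158). The groups did not overlap for any of them, with the narrowest gap between replicate 4 of either genotype for the amylases. Of 31 listed acinar markers, 13 had a row and 5 were tested, and the 9 rows other than Amy2a1, Amy2a4, Pnliprp1 and Cela1 summed to 17 to 122 reads in any of the 8 livers. Cela1 differed by -0.59 ± 0.28 (SE) in the opposite direction. Amy1, the amylase gene that liver expresses, stood at 11.34, 11.59, 11.56 and 11.52 in controls and 11.89, 11.52, 11.71 and 11.62 in mutants (0.18 ± 0.16 (SE)). The amylases are close paralogs, and how reads were split between them is uncertain.

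Of 11 measured hepatocyte markers, 0 had an unadjusted p under 0.05 and 4 were higher without overlap, beside 3.19% of all genes tested. Alb took 7.84 to 10.7% of the reads in the 8 livers, and the median of the list was 0.26. Markers of pericentral and periportal hepatocytes had medians of 0.10 and 0.02, with 1 of 12 higher at that p in each (Slc13a3, 0.77 ± 0.27 (SE), and Hsd17b13, 0.80 ± 0.24 (SE)). Sinusoidal endothelial markers had a median of 0.13 with 0 of 9 at that p. Cholangiocyte markers had a median of -0.06, with Krt19 at -1.10 ± 0.43 (SE), and those of stellate cells and fibroblasts had a median of -0.16, with Lrat alone at that p. Adipocyte markers other than Cidec did not pass the filter, and their summed normalized count was 494 in replicate 3 of Trsp fl/fl and at most 19.9 in the other 7 livers.

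Selenoprotein transcripts were measured because the comparison leaves their synthesis intact. Of 20 measured genes (22 listed), 15 were lower in the mean, 4 had an unadjusted p under 0.05 and the median was -0.10. Gpx4, described above, and Txnrd1 were among them. Selenom stood at 5.07, 4.86, 5.01 and 4.85 in controls and 3.85, 3.95, 4.29 and 4.65 in mutants (-0.76 ± 0.26 (SE, limma unadjusted p = 0.0104, adjusted p = 0.367)), and Txnrd3 differed by -0.45 ± 0.18 (SE). The abundant Gpx1 and Selenop, a peroxidase and the plasma carrier of selenium, stood at 13.81 ± 0.50 and 16.50 ± 0.07 in controls and 13.53 ± 0.29 and 16.71 ± 0.15 in mutants, differences of -0.28 ± 0.21 (SE) and 0.21 ± 0.18 (SE). The genotypes overlapped for both genes.

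In the model of 16 libraries the remaining lists held few genes at an unadjusted p under 0.05. All 22 cell cycle genes were lower in the mean (median -0.53), and 0 had an unadjusted p under 0.05 in the model of 16 libraries. With the 8 compared livers alone, 8 of the 22 were lower at that p. Mki67 stood at 10.38, 9.91, 9.56 and 9.48 in controls and 8.73, 9.75, 9.60 and 9.29 in mutants with overlap. ATF4 targets had a median of -0.29 with 0 of 15 at that p, and chaperones of the endoplasmic reticulum a median of 0.10 with 1 of 11 lower (Dnajb9, -1.02 ± 0.34 (SE)). Acute phase genes had a median of 0.07 with 2 of 16 higher (Itih4, 0.59 ± 0.17 (SE), and Hpx, 0.55 ± 0.23 (SE)), genes of the growth hormone and IGF axis a median of 0.00 with 0 of 11, and circadian genes a median of 0.39 with 1 of 18 (Bhlhe40, 0.83 ± 0.37 (SE)). Sulfotransferases had 1 of 13 lower (Sult1b1, -0.64 ± 0.20 (SE)), megakaryocyte markers 0 of 6, and fetal liver genes 1 of 7 higher. The last was Igf2, which stood at 4.80, 4.92, 8.53 and 6.05 in controls and 8.70, 9.13, 6.10 and 9.26 in mutants, where replicate 3 of the controls lay above replicate 3 of the mutants. Without that control, 5 of the 7 fetal liver genes and 4 of the 18 circadian genes were higher at that p. With the 8 compared livers alone, 5 of the 16 acute phase genes were. Leaving out each liver in turn, the median ran from -0.026 to 0.47 for acute phase genes, from -0.15 to 0.17 for the growth hormone and IGF axis, from -0.14 to 0.30 for the chaperones and from -0.33 to -0.022 for ATF4 targets.

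Several genes with large differences belong to no list. Naip6, of the inflammasome sensor family, stood at 6.44, 6.73, 6.02 and 6.62 in controls and 2.90, 2.0, 2.69 and 5.82 in mutants (-3.10 ± 0.57 (SE, limma unadjusted p = 6.54e-05, adjusted p = 0.0574)). Sntg2, a syntrophin gene, was read 21, 55, 76 and 31 times in controls and 0, 6, 0 and 0 times in mutants (-3.25 ± 0.81 (SE)). The predicted gene Gm12338 was read 63, 57, 39 and 26 times in controls and 0, 13, 0 and 0 times in mutants (-3.15 ± 0.73 (SE)). In each of these 3 genes, 1 mutant liver stood above the other 3. Adh6-ps1, a pseudogene of alcohol dehydrogenase, stood at 7.27, 7.52, 6.74 and 6.79 in controls and 6.13, 2.31, 6.23 and 2.0 in mutants (-2.91 ± 0.79 (SE)), where the mutants fell into 2 high and 2 low livers. The predicted gene Gm2093 was read 3, 4, 2 and 9 times in controls and 29, 35, 36 and 16 times in mutants (1.77 ± 0.47 (SE)).

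Genes that neighbour Keap1 on chromosome 9 were examined because an engineered allele brings its flanking region with it. Since the reference here is GRCm38 and the quantification used another GENCODE release, neighbours were taken by gene order and not by distance. Of the 50 tested genes on each side, 0 had an adjusted p under 0.05, and 7 were lower and 2 higher at an unadjusted p under 0.05, or 9 of 100 beside 9.07% of all genes tested. Their median absolute log2 fold change was 0.115, beside 0.169 for all genes tested. Among the 9, Angptl8 (1.74), Rab3d (-0.47), Tmem205 (-0.46) and Ccdc159 (-0.59) followed one another in gene order. An unadjusted p under 0.05 with the same sign both without and with AlbCre was found for 3 of the 100, beside 313 of 15781 genes tested. These 3 were Angptl8, Tmem205 and Ccdc159, all from that run of adjacent genes. Whether these differences come from the flanking region was not tested.

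The difference between the Keap1 genotypes in livers with AlbCre was set beside these values, since its means come from 8 libraries that share none with the comparison above. Both comparisons use the same estimate of each gene's spread, so a gene's p-values in them are not independent. In those livers, 8.45% of genes were higher and 9.15% lower at an unadjusted p under 0.05. Of the 14 genes at an adjusted p under 0.05 without AlbCre, 13 had the same sign with AlbCre and 10 of these had an unadjusted p under 0.05 there. Of the 321 genes with an unadjusted p under 0.01 and no overlap, 228 had the same sign (71.0%), beside 53.0% of all genes. The same sign with an unadjusted p under 0.05 with AlbCre was found for 105 of the 321 (32.7%). The share over all genes tested was 11.2%. Across the 15781 genes, which are not independent, the fold changes without and with AlbCre had a Pearson correlation of 0.242.

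NRF2 targets had medians below 0 in both settings. The median was -0.45 without and -1.14 with AlbCre, and 46 of 58 were lower at an unadjusted p under 0.05 with AlbCre. Without the mutant AlbCre library that held Xist, the median with AlbCre was -1.05. Nqo1 had a fold change of -2.96 with AlbCre, Gstm1 -3.26, Srxn1 -1.27 and Gclc -1.21. The difference between the settings was tested by the interaction term, over all genes. At the limits taken from the study it called 9 genes (0.057%), 4 in the positive direction (Gsta1, Vtcn1, Gm3776 and Tram2) and 5 in the negative, and 5 and 6 without that library. Gsta1, Vtcn1 and Gm3776 had at most 7 reads in any liver without AlbCre. These genes passed the filter on low values only through livers with AlbCre, so a difference without AlbCre could hardly show in them. Gsta1 had a fold change of -0.77 without and -5.97 with AlbCre (limma interaction, adjusted p = 7.17e-05). Its reads were 5, 7, 4 and 0 in Trsp fl/fl livers but 1089, 852, 1195 and 704 in the wild-type Keap1 livers with AlbCre. With so few reads in Trsp fl/fl livers, the added constant of 4 understates the -0.77. With a constant of 0.1, the interaction called 0 genes in either direction. At an adjusted p under 0.05, Gstm3 (-2.32 and -5.86, adjusted p = 0.022), Gstp1 (-0.44 and -2.08, adjusted p = 0.0413) and Cbr1 (-0.22 and -1.80, adjusted p = 0.038) differed in the same way by limma. For Nqo1, Gstm1, Srxn1 and Gclc the limma interaction had adjusted p of 0.244, 0.204, 0.267 and 0.339.

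For Tram2 the fold change was 1.21 without and -0.02 with AlbCre, a difference of 1.23 (limma interaction, adjusted p = 0.00501). The 5 genes called in the negative direction (Rpl15-ps6, Gm3375, Rprl3, Rpl15-ps2 and Gm5898) had at most 1 read in each of the 8 livers without AlbCre. They passed the filter only through the mutant livers with AlbCre, where Rpl15-ps6 was read 231, 246, 255 and 252 times. Among the called genes, Tram2 alone had more than a few reads in both settings. Several groups that were higher without AlbCre had medians near 0 with it, though no gene of these groups passed the interaction test. MHC class II genes had a median of 1.25 without and 0.11 with AlbCre, class I genes 0.46 and -0.09, and GTPases 1.07 and -0.13. Cd74 had fold changes of 1.51 and 0.09 (limma interaction, adjusted p = 0.242). Erythroid genes had medians of -0.65 and 0.45, the latter 0.04 without the mutant AlbCre library that held Xist. B cell markers had 1.27 and 0.79, the pancreatic amylase Amy2a1 3.32 and 3.82, Ces1g -4.20 and -3.30, Cyp26a1 -3.51 and -3.53, and Pir -0.96 and -1.04. For these 4 genes the limma interaction had adjusted p of 0.876, 0.704, 0.997 and 0.897.

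**Figure D5:**
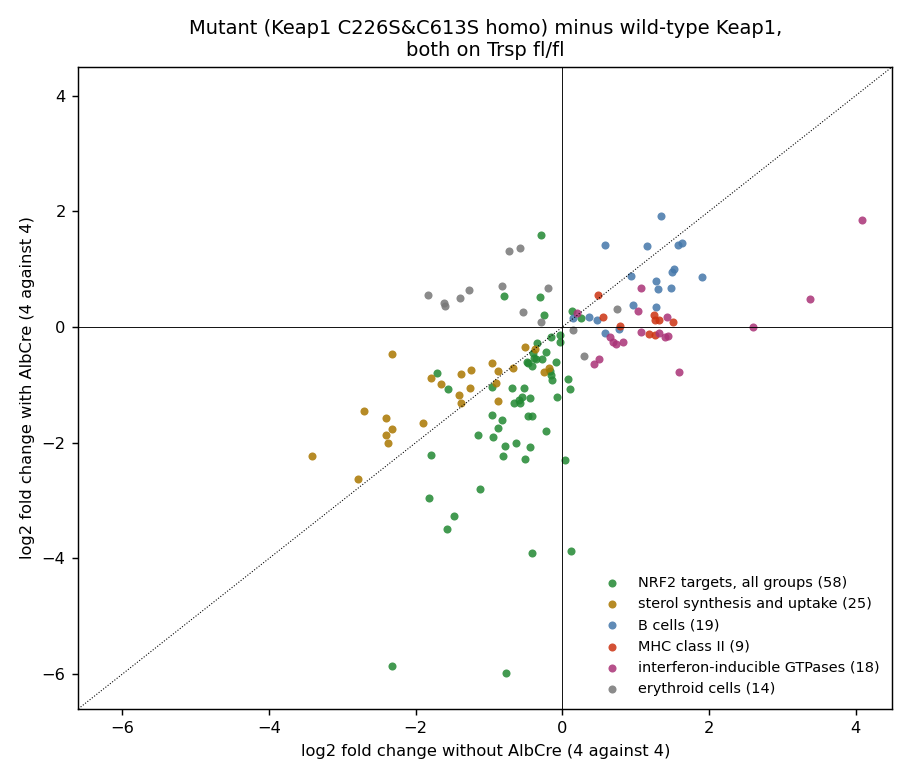
Each point is a gene, with the log2 fold change of mutant over wild-type Keap1 without AlbCre on the x axis and with AlbCre on the y axis, coloured by list. The dotted line marks equal values. NRF2 targets lie mostly below the line in the lower left, while MHC class II genes spread along the x axis near 0 on the y axis.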

How the data were processed

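Livers of 16 mice (4 per genotype) were profiled by directional RNA-seq of rRNA-depleted total RNA. Per the study's methods, the authors quantified reads with Salmon against GENCODE mouse transcripts and used iDEP downstream. As deposited, values are log2 of size-factor-normalized read counts plus a constant of 4. Dividing out these factors gave whole reads for 100% of values up to 100 reads (tolerance 0.05 reads), 11386705 to 19164124 reads per library. Rows without a gene identifier (369 of 18578, 0.274 to 0.627% of reads) were left out.

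Genes that reached a normalized count of 10 in 4 or more of the 16 libraries were tested with limma 3.58.1 (R 4.3.3, lmFit and eBayes with trend), with 1 mean per genotype and Benjamini-Hochberg adjustment over all 15781 genes. The filter took all 16 libraries together, so a gene with few reads could pass it through the genotype where it was high. The test was checked on simulated data. Named genes were those at an adjusted p under 0.05, the 10 largest fold changes per direction among genes with p under 0.01 and no overlap, up to 4 members per list with the smallest p under 0.05, and 10 genes of the KEAP1-NRF2 pathway. Other list members are named to show a list's spread, and some that count in their lists are not reported here by name. The members and gene lists were chosen with earlier results of these data known. Alternatives changed the constant, the filter, the normalization, the libraries, the trend, voom and the replicate block. AlbCre values without the library that held Xist were added after seeing the data. Promoter windows were RefSeq's (GRCm38.p6), probes were matched to GENCODE M21, and figures were drawn with matplotlib 3.10.9.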

Additional observations from a re-analysis of the deposited data

Results flagged for a closer look

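In 264 groups of 4 livers, 17 held 1 liver far from the other 3 by Dixon's criterion. For independent and unselected groups, chance alone flags about 1 in 20, or 13.2 of 264. These groups are of named genes, largely chosen by p, fold change or lack of overlap in the same livers. Genes of 1 list can also move together, so the 17 and the 13.2 cannot be compared. Values are log2(normalized count + 4).

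Replicate 4 of Trsp fl/fl was the lowest control for Acss2 (9.22), Tmem97 (9.43), Pmvk (6.53), Hsd17b7 (8.79) and Mpv17l (7.44) and the highest for Cyp2c38 (9.60). Replicate 3 of Trsp fl/fl was the lowest control for Slc13a3 (9.24) and Prdx1 (13.0).

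Among the mutants, replicate 2 was the highest for Sntg2 (3.29) and Gm12338 (4.04) and the lowest for Mgst1 (13.1). Replicate 3 was the lowest for Nqo1 (5.40) and the highest for Cela1 (5.97) and Cbr1 (9.94). Replicate 4 was the lowest for Gstm3 (6.74) and Aox1 (6.89) and the highest for H2-DMb1 (6.94).

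The difference between the Keap1 genotypes was not the same without and with AlbCre, by the limma interaction at an adjusted p under 0.05, for 5 named genes. The difference without minus that with AlbCre, in log2, was 1.23 for Tram2, 3.54 for Gstm3, 5.21 for Gsta1, 1.64 for Gstp1 and 1.58 for Cbr1. Gsta1 had at most 7 reads in any liver without AlbCre, so a difference there could hardly show.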

How the results depend on the processing

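Of the counts of genes, those at an unadjusted p under 0.05 stayed within 1.5 times under every alternative run. At an adjusted p under 0.05, the 5 genes higher became 3 with a constant of 0.1, 0.5 or 1 and 2 with the 8 livers alone, without the trend or with voom, and ran from 1 to 6 leaving out 1 library. The 9 lower became 2 with the 8 livers alone and 5 without the trend, and ran from 1 to 13. At the limits taken from the study, the 1 gene higher ran from 1 to 2, and the 1 lower became 2 with library totals and 0 with voom and ran from 0 to 4. The 4 positive interaction calls became 0, 1 and 2 with constants of 0.1, 0.5 and 1 and 1 with voom, and the 5 negative became 0 with a constant of 0.1 and 3 with the stricter filter. The median of B cell genes was 1.60 with a constant of 0.1, and that of erythroid genes -1.28 with the stricter filter. Leaving out 1 library, medians ran from -0.51 to -0.43 for NRF2 targets, -0.85 to -0.36 for fatty acid synthesis, -1.03 to -0.26 for erythroid genes and -0.21 to -0.082 for selenoproteins, -0.61 to -0.27 for carboxylesterases and 0.019 to 0.24 for PPAR-alpha targets. That of P450 genes ran from -0.19 to 0.021 and changed sign without control replicate 4. The 0 cell cycle genes lower at an unadjusted p under 0.05 became 8 with the 8 livers alone. Signs also reversed for Nfe2l2 (range -0.0084 to 0.11, below 0 without mutant replicate 1), and for Gclc (-0.26 to 0.078) and Gclm (-0.12 to 0.035), both above 0 without control replicate 1, control replicate 2 or mutant replicate 2. The cause was not tested. The deviations of same-numbered livers from their group means had correlations of -0.16, 0.04, 0.04 and -0.19. Control replicate 2 correlated most with mutant replicate 2, and the other controls with a mutant of another number. With 4 livers per group, these values cannot decide whether the numbers pair the livers. With the replicate block, 2 genes were higher and 4 lower at an adjusted p under 0.05. Depth limits genes with few reads, such as Rag1, Cyp26a1 and Gbp4.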
